A study of Canis lupus familiaris with 17 samples.

Results

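Oxidative phosphorylation genes were taken from the gene table of the deposited count matrices by symbol alone: every gene whose symbol starts with MT-, NDUF, UQCR, ATP5, COX4, COX5, COX6, COX7 or COX8, and SDHA to SDHD. This rule found 76 of 20257 genes, of which 12 are encoded by the mitochondrial genome and 64 by the nuclear genome. By role, the nuclear-encoded members were 27 subunits of complex I, 8 assembly factors of complex I, 3 subunits of complex II, 6 of complex III, 10 of complex IV and 10 of complex V or its inhibitor. Neither they nor the ribosomal protein genes were used to cluster the cells or to name their types. The share of ribosomal protein genes did set 5 clusters apart, as described below. Subunits without a row under these symbols, among them SDHD, NDUFA4, COX6C, COX7C and UQCRH, were not analysed here, nor was ND4L, whose symbol carries no MT- prefix in these files.

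The study captured single circulating leukocytes of 17 client-owned dogs and sequenced their transcripts from the 3′ end with unique molecular identifiers (UMIs). The groups were 7 clinically healthy dogs and 10 dogs with osteosarcoma (OS), a malignant bone tumor, all sampled with the primary tumor in place and before any treatment. Both groups held dogs of several breeds and both sexes and carried no engineered allele. Age was not matched: the healthy dogs were middle-aged, and the dogs with OS ranged from younger than these to old, so that age and disease are not fully separate. Blood of every dog was separated by density gradient centrifugation and red cells were lysed. The label of the samples was PBMC, but clusters with neutrophil markers were present in all 17 dogs.

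Oxidative phosphorylation couples the oxidation of nutrients to the synthesis of ATP across the inner mitochondrial membrane. Complexes I and II pass electrons from NADH and succinate to ubiquinone, complex III passes them on to cytochrome c and complex IV to oxygen, and complex V uses the resulting proton gradient to make ATP. Complex II is built from nuclear-encoded subunits alone, whereas the other complexes each combine subunits from both genomes, so that their assembly draws on both sets of transcripts. Among blood leukocytes, neutrophils are known for few mitochondria and a reliance on glycolysis, and plasma cells for a high secretory and respiratory activity.

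After filters, 80407 cells remained, and 72135 of these, without platelets, erythrocytes and the low-ribosomal clusters described below, are called all leukocytes here. They held between 6616790 UMIs in OS dog 3, with 1103 cells, and 37190307 UMIs in OS dog 2. Cells were grouped into lineages by marker genes, so that each name stands for a cluster that carried the markers of that type ("B cell" for B-like). The cluster led by TMEM132D and KANK1, both from the list for double-negative T cells, held CD8A at 66.1 CPM (range 23.0 to 142), against 6.91 CPM in CD4 T cells and 191 CPM in CD8/NK cells, and is called TMEM132D-high T cells. CD79A, a B cell marker, did not tell B cells from T cells in these counts (6683 CPM in B cells and 8937 CPM in CD4 T cells), whereas MS4A1 did (272 and 0.497 CPM). Healthy dog 2 stood apart in ribosomal protein genes, with 9.19% of UMIs against 12.4% to 21.7% in the other 16 dogs. Pairs of libraries shared between 0 and 22 cell barcodes. Barcodes with 10% or more mitochondrial counts were removed (of barcodes within the limits on genes and UMIs, 1.82% to 8.43% in healthy dogs and 1.24% to 5.78% in dogs with OS), so every mitochondrial share below is bounded from above by this limit. The labels gave no batch, and the p-values below measure the spread among these dogs.

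The share of UMIs from the 12 mitochondrial-encoded members differed widely between lineages, from plasma cells at the top to neutrophils at the bottom. In all leukocytes, mitochondrial-encoded members made up 3.07% ± 0.481 of UMIs (SD, n = 17 dogs), with a range of 2.38% to 3.73%. Plasma cells held 6.42% ± 0.449 (SD, n = 11; range 5.76% to 7.16%) and B cells 5.01% ± 0.708 (SD, n = 17; range 3.79% to 6.10%). Among T cells, the share was 3.77% ± 0.653 in a T cell cluster led by TMEM132D, 3.36% ± 0.606 in a CD4-like cluster led by ITGA2, 3.17% ± 0.5002 in CD4 T cells and 2.91% ± 0.424 in CD8/NK cells (SD, n = 17 each), and 3.22% ± 0.511 in γδ T cells (SD, n = 9). Dendritic cells held 3.64% ± 0.544 (SD, n = 14) and monocytes 2.50% ± 0.464 (SD, n = 17). Far below all of these were eosinophils/basophils at 1.08% ± 0.428 (SD, n = 15) and neutrophils at 0.198% ± 0.107 (SD, n = 17). The lowest, median and highest neutrophil values of a dog were 0.0624%, 0.173% and 0.434%, against 1.87%, 2.51% and 3.27% in monocytes, so that the neutrophil values lay below the monocyte values of every dog.

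**Figure D1:**
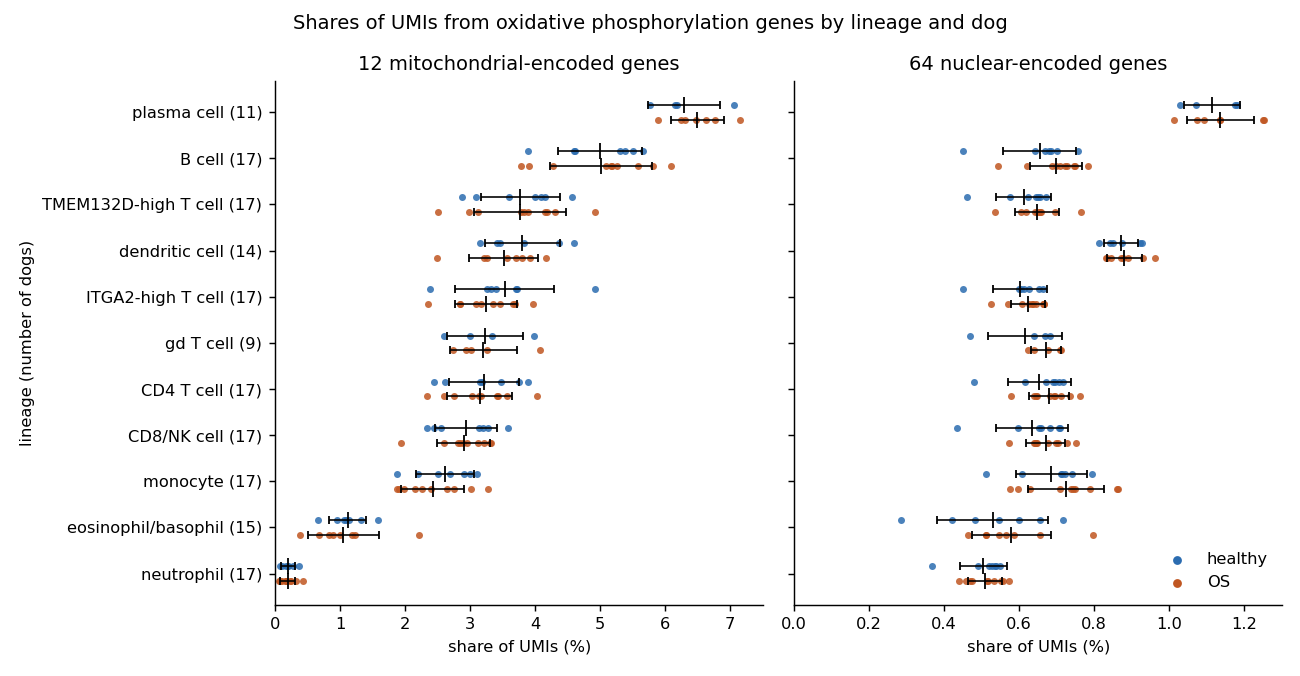
Percent of UMIs from the 12 mitochondrial-encoded and the 64 nuclear-encoded oxidative phosphorylation genes in 11 lineages, with 1 dot per dog (healthy blue, OS orange) and black bars for the mean ± SD of each group. Plasma cells (mean 6.42%) and B cells (5.01%) lie highest and neutrophils (0.198%) lowest in the mitochondrial panel, while the healthy and OS dots overlap in every lineage.

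Within dogs, 48 of the 55 pairs of lineages differed in mitochondrial share (adjusted p below 0.05, exact two-sided sign-flip permutation test of the log2 ratio, Benjamini-Hochberg over the 55 pairs). Plasma cells lay above B cells by 0.36 on the log2 scale (11 of 11 dogs, adjusted p = 0.00141), and B cells above CD4 T cells by 0.66 (17 of 17 dogs, adjusted p = 5.59e-05). CD4 T cells lay above monocytes by 0.35 (17 of 17 dogs, adjusted p = 5.59e-05), and above CD8/NK cells by only 0.12 (15 of 17 dogs, adjusted p = 0.0207), a call that was lost at clustering resolution 1.5 and in dogs with OS alone. In healthy dogs alone plasma cells over B cells did not pass (0.31). Only healthy dogs 3, 4, 6 and 7 had at least 25 plasma cells, too few for the exact test to reach the threshold. The widest step between neighbors in the order was from eosinophils/basophils to neutrophils, with a log2 ratio of 2.64 (15 of 15 dogs, adjusted p = 0.000153), and monocytes exceeded neutrophils by 3.85 (17 of 17 dogs, adjusted p = 5.59e-05). With the barcodes removed for high doublet scores kept, the log2 ratio of eosinophils/basophils over neutrophils was 1.19, and that of neutrophils over monocytes was −2.25. Neighbors in the middle of the order did not differ beyond their spread: TMEM132D-high T cells and dendritic cells (adjusted p = 0.270), dendritic cells and the ITGA2-high T cells (0.327), ITGA2-high and γδ T cells (0.442), and γδ and CD4 T cells (0.645).

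Markers of other cell types were also counted in neutrophils. The summed level of 6 pan-T cell markers was 46.5 CPM (UMI counts scaled to a common total per dog and lineage, range 9.99 to 127) in neutrophils against 2178 CPM in CD4 T cells, and that of 12 monocyte markers was 2504 CPM (range 1251 to 8524) against 29793 CPM in monocytes. Of single defining markers, CD3E was at a mean of 18.3 CPM, MS4A1 at 0.0888 CPM and LYZ at 2146 CPM in neutrophils. The eosinophil marker IL5RA was at 46.7 CPM (range 5.84 to 110) in neutrophils and 659 CPM in eosinophils/basophils, and the summed level of 10 eosinophil and basophil markers was 3244 CPM (range 2405 to 4324) against 9291 CPM. The part of RNA from other cells in the low neutrophil shares was not tested. Neutrophils and eosinophils/basophils also had few UMIs per cell, with mean medians of 1674 and 1456, compared with 5727 in CD4 T cells and 12104 in monocytes.

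The 64 nuclear-encoded members varied far less, from 1.13% ± 0.0813 of UMIs in plasma cells (SD, n = 11; range 1.01% to 1.25%) to 0.507% ± 0.0519 in neutrophils (SD, n = 17; range 0.368% to 0.573%). Between these ends lay dendritic cells at 0.877% ± 0.0444 (SD, n = 14), monocytes at 0.709% ± 0.0974 (SD, n = 17; range 0.511% to 0.863%), and B, CD4 T and CD8/NK cells at 0.681% ± 0.0821, 0.669% ± 0.0662 and 0.656% ± 0.0728 (SD, n = 17 each). Cycling cells, with enough cells in 5 dogs only, reached 1.10%. By the same exact test 46 of 55 pairs differed. Plasma cells exceeded B cells by 0.65 on the log2 scale (11 of 11 dogs, adjusted p = 0.00173), dendritic cells exceeded monocytes by 0.25 (14 of 14 dogs, adjusted p = 0.000373), and monocytes exceeded neutrophils by 0.48 (17 of 17 dogs, adjusted p = 0.00012). No difference past the threshold was found between B and CD4 T cells (log2 ratio 0.02, 11 of 17 dogs, adjusted p = 0.234), between monocytes and CD4 T cells (0.08, 13 of 17 dogs, adjusted p = 0.0536), or between eosinophils/basophils and neutrophils (0.11, 10 of 15 dogs, adjusted p = 0.142). The ratio of monocytes over CD4 T cells did pass at clustering resolution 0.5 and without healthy dog 1, OS dog 1 or OS dog 2 (0.10 without the last, adjusted p = 0.00713, exact test). In healthy dogs alone 0 pairs passed, where fewer dogs give a larger smallest p. In the same dogs some pairs did pass for the mitochondrial share.

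The number of mitochondrial UMIs per nuclear-encoded member UMI was 7.41 in B cells, 5.98 in TMEM132D-high T cells, 5.72 in plasma cells, 4.77 in CD4 T cells, 3.55 in monocytes, 2.02 in eosinophils/basophils and 0.389 in neutrophils. Among the 11 lineages compared, neutrophils were the only one with a mean below 1. In PMN-MDSCs, a neutrophil-like population with enough cells in 5 dogs with OS and no healthy dog, the ratio was 1.02. Over the means of the 11 lineages, both shares had a Pearson r of 0.789, which was 0.400 without neutrophils and plasma cells. These lineages come from the same libraries, and both shares have the same denominator.

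Complex I subunits took up 0.450% of UMIs in plasma cells, 0.283% in B cells, 0.289% in monocytes and 0.259% in neutrophils. For complex V the corresponding shares were 0.330%, 0.197%, 0.205% and 0.0997%, and for complex III 0.0961%, 0.0563%, 0.0583% and 0.0358%. These sums were not tested. The sum for complex I in neutrophils held a large part from 1 gene, NDUFS5, with means of 704 CPM in neutrophils and 261 CPM in monocytes. In the gene by gene comparison below, 15 of 27 complex I subunits were called lower in neutrophils and 2 higher. Among all genes 33.4% were lower and 18.9% higher.

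Clusters within a lineage differed as well. Of the 2 monocyte clusters, the one led by BPI, MT2A and LYZ had 2.96% mitochondrial and 0.760% nuclear-encoded UMIs, and the one led by IL1B, THBS1, FN1 and VCAN had 1.58% and 0.605%. Both shares were higher in the former in 17 of 17 dogs (adjusted p = 4.27e-05 each over the 14 cluster comparisons, exact sign-flip permutation test). The pairs of clusters were chosen after their values were seen, a choice that the adjustment does not cover. Of the 2 dendritic clusters, the one led by IGF1, with TCF4 and TLR3 among its leading genes, had 5.46% mitochondrial UMIs against 3.16% in the other and was higher in 11 of 11 dogs (adjusted p = 0.00152). Its nuclear-encoded share was higher by less (0.937% against 0.870%, 10 of 11 dogs, adjusted p = 0.00684). The main B cell cluster held 5.27% mitochondrial UMIs and the smaller one, led by SYT1 and VPREB3, held 3.86% (16 of 16 dogs, adjusted p = 6.1e-05), while the nuclear-encoded share leaned the other way (0.684% and 0.721%, adjusted p = 0.00976).

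A further 5 small clusters carried the markers of monocytes, T cells, B cells, CD8/NK cells and dendritic cells, respectively, but few transcripts of ribosomal protein genes (2.69% of UMIs on average, compared with 12.7% in monocytes and 21.5% in CD4 T cells). They were kept apart from their lineages as low-ribosomal cells. Together they held 4.58% ± 0.742 mitochondrial UMIs (SD, n = 17) but only 0.233% ± 0.0509 nuclear-encoded member UMIs, a ratio of 20.4. Against its ordinary counterpart, the monocyte-like low-ribosomal cluster had more mitochondrial UMIs (4.27% against 2.96%) and fewer nuclear-encoded UMIs (0.245% against 0.760%), each in 17 of 17 dogs (adjusted p = 4.27e-05, exact test as above). The B-like one differed in the nuclear-encoded share (0.178% against 0.677%, 16 of 16 dogs, adjusted p = 6.1e-05), whereas its mitochondrial share was not distinguishable (5.43% against 5.18%, adjusted p = 0.312). These pairs of clusters, too, were chosen after their values were seen. Low-ribosomal cells made up 6.16% of the cells of healthy dogs and 5.16% of those of dogs with OS (p = 0.962, exact Wilcoxon rank-sum test).

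To resolve the single members, UMIs were summed per dog and lineage and compared within dogs across all genes. A gene was called at an adjusted p below 0.01 with an absolute log2 fold change above 0.58 (edgeR quasi-likelihood test with trimmed-mean (TMM) scaling and the dog as a block). Fold changes on this scale are relative to the bulk of genes, and counts with the library size alone as the scale are given for members, roles and lists. The median member level in all leukocytes was 1450 CPM for mitochondrial-encoded members, 185 CPM for complex V, 100 CPM for complex I, 94.9 CPM for complex III, 56.0 CPM for complex II and 24.9 CPM each for complex IV and the assembly factors. The complex IV median includes the tissue-restricted isoforms near 0 described below. Its members COX4I1, COX5B, COX5A and COX8A had means of 410, 247, 208 and 130 CPM. These are counts of molecules tagged at the 3′ end and are not scaled by length, so levels of different genes are not ranked here.

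Of the 5 pairs of lineages compared gene by gene, CD8/NK against CD4 T cells had the fewest members called. Of 72 members tested, 0 were higher and 4 lower in CD8/NK cells, where 9.73% of all 14864 genes tested were higher, 11.6% lower and 21.3% either. ATP5F1E, the epsilon subunit of the ATP synthase, had a range of 171 to 385 CPM with a median of 283 in CD8/NK cells and of 234 to 559 with a median of 446 in CD4 T cells. It was lower in CD8/NK cells in 17 of 17 dogs although the ranges overlapped (log2 fold change −0.72, SE 0.034, adjusted p = 1.01e-14). MT-ND3 and MT-ND1, core subunits of complex I, were also lower (−0.63 and −0.61, both in 17 of 17 dogs), but with library size alone their changes were −0.50 and −0.48, under the fold limit. NDUFAF7, an assembly factor, was lower at a level of only 2.42 against 3.13 CPM. Library size alone left 1 member lower, where 8.93% of all genes were lower and 11.9% higher.

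In B cells against CD4 T cells, the median log2 fold change was 0.46 for mitochondrial-encoded members and −0.17 for nuclear-encoded members, compared with −0.06 for all 14843 genes tested. With library size alone these medians were 0.60, −0.04 and 0.08, so the nuclear-encoded median was near 0 on that scale. Of 73 members, 5 were called higher and 2 lower (15.5% of all genes in each direction, 31.0% in either). MT-CO2, a catalytic subunit of complex IV, ranged from 6751 to 13439 CPM (median 10606) in B cells and from 3947 to 7922 (median 6078) in CD4 T cells. Its B cell value was higher in 17 of 17 dogs (log2 fold change 0.64, SE 0.031, adjusted p = 3.58e-17), as were those of MT-ATP6, the a subunit of the ATP synthase (0.64), and MT-CYB, the mitochondrial subunit of complex III (0.65). MT-ATP8, whose reading frame overlaps that of MT-ATP6, was higher in 16 of 17 dogs (0.69). MT-ND6 did not share this direction, with an uncalled log2 fold change of −0.30, and MT-ND5 was at 311 ± 80.3 against 280.1 ± 52.8 CPM (adjusted p = 0.965).

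The called nuclear-encoded members in this comparison were few. NDUFA6, an accessory subunit of complex I, was higher in B cells in 17 of 17 dogs (159 ± 34.9 against 92.1 ± 15.95 CPM, SD, log2 fold change 0.65, adjusted p = 8.25e-11). COX8A, a small subunit of complex IV, was lower in 17 of 17 dogs (97.0 ± 44.0 against 143 ± 70.3 CPM, −0.69, adjusted p = 1.55e-14), and NDUFA13, also known as GRIM19, in 16 of 17 (23.6 ± 14.8 against 31.9 ± 17.04 CPM, −0.62, adjusted p = 7.09e-07). With library size alone the latter 2 changes were −0.55 and −0.48 and were not called. The counts of 73 members became 7 higher and 0 lower, where 18.2% of all genes were higher and 12.8% lower.

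In monocytes against CD4 T cells, the median log2 fold change was 0.26 for nuclear-encoded and −0.35 for mitochondrial-encoded members, where the median of all 15340 genes was −0.09. Of 72 members, 12 were called higher, all nuclear-encoded, and 5 lower, 3 of them mitochondrial-encoded, against backgrounds of 25.1% higher, 26.8% lower and 51.9% either. With library size alone the median of all genes was −0.30, that of nuclear-encoded members 0.05 and that of mitochondrial-encoded members −0.57. Then 3 members were higher and 11 lower (21.0% and 33.4% of all genes), so the split between directions depends on the scale.

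Within complex I, 4 of 27 nuclear-encoded subunits were higher and 0 lower in monocytes, both below the 25.1% higher and 26.8% lower of all genes. NDUFA8, an accessory subunit, ranged from 70.2 to 142 CPM (median 104) in monocytes and from 28.3 to 55.4 (median 47.8) in CD4 T cells, without overlap (log2 fold change 1.40, SE 0.057, adjusted p = 1.26e-16). NDUFS8, which carries iron-sulfur clusters, was at 158 ± 42.6 against 74.5 ± 13.2 CPM (SD, 17 of 17 dogs, 1.27). NDUFB6 had a smaller change of 0.77. The assembly factor NDUFAF4 was lower in 17 of 17 dogs (6.76 ± 2.01 against 12.9 ± 2.37 CPM, −0.73).

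With TMM scaling, 3 of 12 mitochondrial-encoded members were called lower in monocytes, a share near the 26.8% of all genes. All 3 encode complex I subunits, as do all members from MT-ND1 to MT-ND6. On library size alone 6 of 12 were lower, against 33.4% of all genes. MT-ND6, the one protein-coding gene on the light strand of the mitochondrial genome, ranged from 13.1 to 29.7 CPM (median 21.6) in monocytes and from 69.8 to 246 (median 102) in CD4 T cells, again without overlap (log2 fold change −2.24, SE 0.062, adjusted p = 7.36e-20). MT-ND1 was at 696 ± 148 against 1559 ± 278 CPM (−0.96, no overlap) and MT-ND2 at 457 ± 104 against 861 ± 202 CPM (−0.69), both lower in 17 of 17 dogs. MT-CO1, the catalytic core of complex IV, stood apart from them with an uncalled log2 fold change of 0.34.

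Some members of the other complexes were also called higher in monocytes with TMM scaling. COX4I1, a regulatory subunit of complex IV, was at 491 ± 112 against 332 ± 51.9 CPM (16 of 17 dogs, log2 fold change 0.77), and ATP5MC1, which encodes the c subunit of the ATP synthase, at 120.0 ± 32.1 against 83.4 ± 16.5 CPM (17 of 17 dogs, 0.72). In complex V, 4 of 10 members were higher (ATP5F1A, ATP5F1C, ATP5F1D and ATP5MC1), against 25.1% of all genes. UQCRC1 and UQCRFS1 of complex III were higher while UQCR10 was lower (−0.60). On library size alone, 2 complex I subunits were higher and 1 lower, in complexes III and V 0 were higher and 1 was lower in each, 1 complex IV member was higher instead of 2, and 2 assembly factors were lower instead of 1. On that scale the changes of NDUFB6, COX4I1 and ATP5MC1 were 0.56, 0.55 and 0.50, under the fold limit. In total 4 of 72 members did not overlap between the lineages (COX7A1, NDUFA8, MT-ND1 and MT-ND6), compared with 23.4% of all genes.

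Neutrophils against monocytes gave the widest contrast. Of 72 members, 2 were called higher and 51 lower in neutrophils, where 18.9% of all 14220 genes were higher, 33.4% lower and 52.3% either. All 12 mitochondrial-encoded members were lower in 17 of 17 dogs each, with log2 fold changes from −2.16 (MT-ND6) to −4.30 (MT-CO1). MT-CO1 ranged from 102 to 739 CPM (median 328) in neutrophils and from 4003 to 7834 (median 5893) in monocytes, without overlap (SE 0.171, adjusted p = 2.05e-19). MT-ND4 (−4.04), MT-CO2 (−3.91), MT-ATP8 (−3.90), MT-ATP6 (−3.84) and MT-CO3 (−3.83) differed by similar amounts. The median over nuclear-encoded members was −0.94, compared with −0.33 for all genes, and with library size alone 2 members were higher and 48 lower.

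Nuclear-encoded members did not all go down together. NDUFS5, an accessory subunit of complex I, was higher in neutrophils in 17 of 17 dogs, with a range of 521 to 865 CPM (median 686) against 178 to 311 (median 267) in monocytes and no overlap (log2 fold change 1.32, SE 0.084, adjusted p = 1.28e-14). NDUFA8 was higher as well (189 ± 47.1 against 104 ± 21.4 CPM, 0.75, 17 of 17 dogs). Among the lower members with at least 10 CPM in one of both lineages, ATP5MC1 fell from 120.0 ± 32.1 CPM in monocytes to 14.3 ± 6.80 in neutrophils (−3.19), NDUFA9 from 53.2 ± 7.85 to 7.58 ± 6.01 (−2.86), ATP5F1A, the alpha subunit of the ATP synthase, from 183 ± 26.7 to 28.5 ± 14.1 (−2.73), and NDUFS4 from 161 ± 10.2 to 29.1 ± 11.4 (−2.59). These were lower in 17 of 17 dogs each and did not overlap between the lineages.

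By role, 9 of 10 complex V members, 7 of 8 assembly factors, 15 of 27 complex I subunits, 3 of 6 complex III members, 3 of 6 tested complex IV members and 2 of 3 complex II members were lower in neutrophils. This stands against 33.4% of all genes. Scaled by library size alone, where 32.0% of all genes were lower, these counts were 13 of 27 for complex I subunits and 6 of 8 for assembly factors. They were the same numbers for the other complexes. COX4I1 (−0.38), NDUFB2 (0.10) and COX8A (0.20) were among the members not called. Of the complex II subunits, SDHA (log2 fold change −1.54) and SDHC (−1.24) were lower, whereas SDHB, the iron-sulfur subunit, was at 120 ± 31.5 CPM in neutrophils and 119 ± 9.15 in monocytes (−0.06, adjusted p = 0.654). In total 28 of 72 members did not overlap, compared with 15.7% of all genes.

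**Figure D2:**
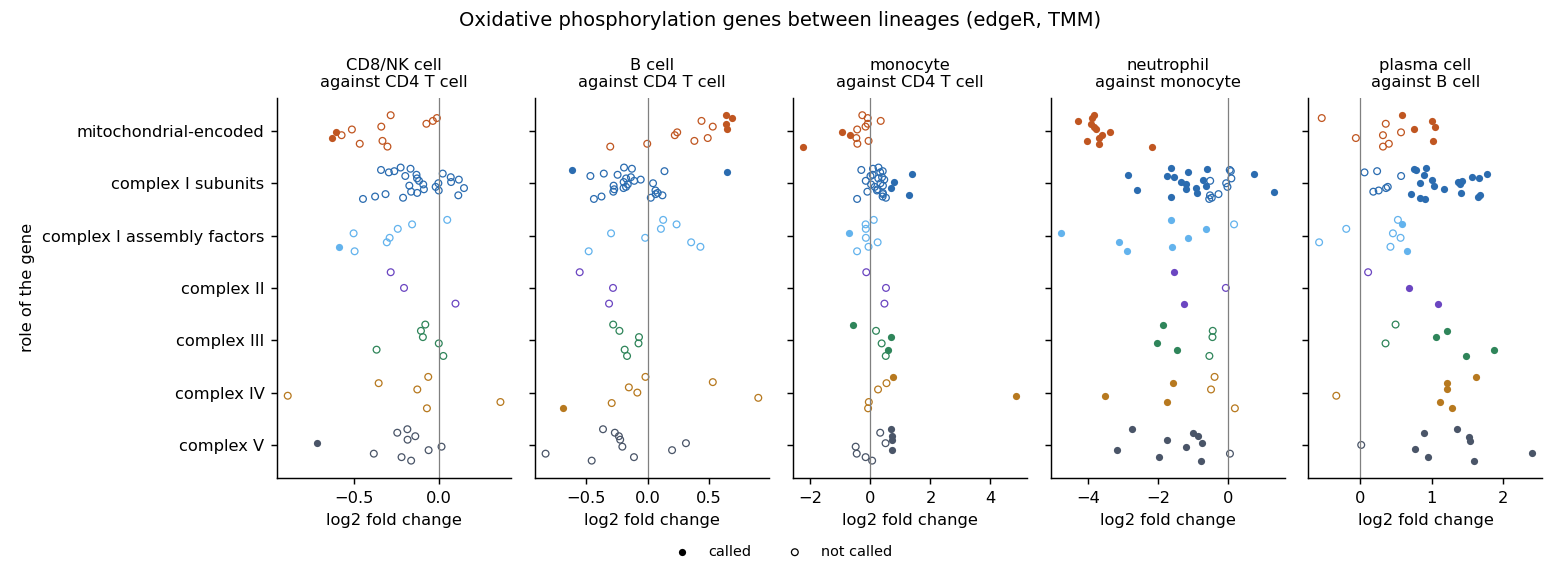
Log2 fold change of each member, grouped by role, in 5 comparisons between lineages, with filled dots for members called (adjusted p below 0.01 and absolute log2 fold change above 0.58) and open dots for members not called. All 12 mitochondrial-encoded members lie below −2 for neutrophils against monocytes, and 46 of 71 members are called higher in plasma cells than in B cells.

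Plasma cells against B cells was the comparison with the largest share of members called higher. In the 11 dogs with enough cells of both, 46 of 71 members were higher in plasma cells and 0 lower, where 18.6% of all 12141 genes were higher, 23.3% lower and 41.9% either. The median log2 fold change was 0.90 for nuclear-encoded and 0.48 for mitochondrial-encoded members against −0.17 for all genes. With library size alone the median of all genes was −0.54 and that of the members 0.45, and 30 members were higher and 3 lower (12.6% and 36.5% of all genes).

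Every complex contributed to this difference: 20 of 27 complex I subunits, 2 of 3 complex II, 4 of 6 complex III, 5 of 6 tested complex IV and 8 of 9 tested complex V members were higher, as were 2 of 8 assembly factors. Among all genes 18.6% were higher, so the assembly factors lay near that share. On library size alone these were 12, 1, 4, 5 and 5, and 0 assembly factors were higher and 2 lower (12.6% of all genes higher and 36.5% lower). ATP5MC1 ranged from 329 to 620 CPM (median 450) in plasma cells and from 92.3 to 139 (median 116) in B cells, without overlap (log2 fold change 2.40, SE 0.087, adjusted p = 4.68e-21). UQCRFS1, the Rieske iron-sulfur protein of complex III, was at 96.1 ± 20.8 against 34.5 ± 7.62 CPM (1.87), NDUFA8 at 117 ± 24.7 against 45.0 ± 12.2 CPM (1.77), NDUFS8 at 248 ± 28.1 against 101 ± 9.38 CPM (1.67) and NDUFB2 at 590 ± 47.0 against 243 ± 19.4 CPM (1.66). All 4 were higher in 11 of 11 dogs, and in each the ranges of the lineages did not overlap. In total 22 of 71 members did not overlap, compared with 20.6% of all genes. SDHC (1.08) and SDHB (0.68) were higher, and SDHA was not called (0.11).

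Of the mitochondrial-encoded members, 5 of 12 were higher in plasma cells, against 18.6% of all genes. With library size alone 3 were higher and 1 lower, against 12.6% and 36.5% of all genes. MT-CO3 ranged from 13309 to 18273 CPM (median 15864) in plasma cells and from 7986 to 12351 (median 10102) in B cells, without overlap (log2 fold change 1.05, SE 0.062, adjusted p = 1.07e-15). MT-ND4 (1.01), MT-CO1 (1.00), MT-CYB (0.74) and MT-ATP6 (0.58) followed. MT-ATP8 leaned the other way in 11 of 11 dogs, at 98.0 ± 33.6 against 182 ± 44.5 CPM (−0.54, under the fold limit). MT-CO2 was not called, at 10920.5 ± 812 against 11142 ± 1242 CPM. Its fold change of 0.35 has the other sign because TMM scaling sets it relative to the bulk of genes.

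The make-up of the mitochondrial UMIs also differed between lineages. In 60 tests of the share of each mitochondrial-encoded gene among all mitochondrial UMIs, 46 passed an adjusted p of 0.05 (exact two-sided sign-flip permutation test). The shares of a lineage add up to the whole, so a higher share of any gene lowers others and the tests are not independent. MT-CO1 made up 22.9% of the mitochondrial UMIs of monocytes and 16.5% of those of CD4 T cells (17 of 17 dogs, adjusted p = 4.16e-05), and 19.2% of those of CD8/NK cells. MT-ND1 showed the reverse, with 2.78% in monocytes and 4.92% in CD4 T cells (17 of 17 dogs, adjusted p = 4.16e-05). In plasma cells against B cells, MT-CO3 rose from 19.9% to 24.7% and MT-CO2 fell from 22.3% to 17.04%, each in 11 of 11 dogs (adjusted p = 0.00161). MT-ND6 took 0.395% ± 0.196 of mitochondrial UMIs in CD4 T cells, 0.372% ± 0.150 in CD8/NK cells, 0.217% ± 0.0944 in B cells and 0.0891% ± 0.0322 in monocytes (SD, n = 17 each), and 0.139% ± 0.0383 in plasma cells (SD, n = 11).

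Between neutrophils and monocytes, 6 of 12 genes passed in this test of make-up (MT-CO1, MT-ND4, MT-ND1, MT-CO3, MT-ATP6 and MT-ND6) and the other 6 did not. MT-CO1 made up 18.1% ± 3.32 of them and MT-ND6 0.364% ± 0.296 (SD, n = 17), against 22.9% ± 2.10 and 0.0891% ± 0.0322 in monocytes. The former share was lower in neutrophils in 15 of 17 dogs (adjusted p = 0.000159, exact permutation test). The latter was higher in 14 of 17 (adjusted p = 0.00161, same test). MT-ND6 ranged from only 0 to 21.5 CPM in neutrophils and was at 0 in healthy dogs 2 and 6. Its neutrophil share thus rests on very few UMIs in most dogs, near the floor of counting. In all leukocytes together MT-CO1 made up 18.3% of mitochondrial UMIs, and the part of RNA from other cells in the make-up measured in neutrophils was not tested.

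**Figure D3:**
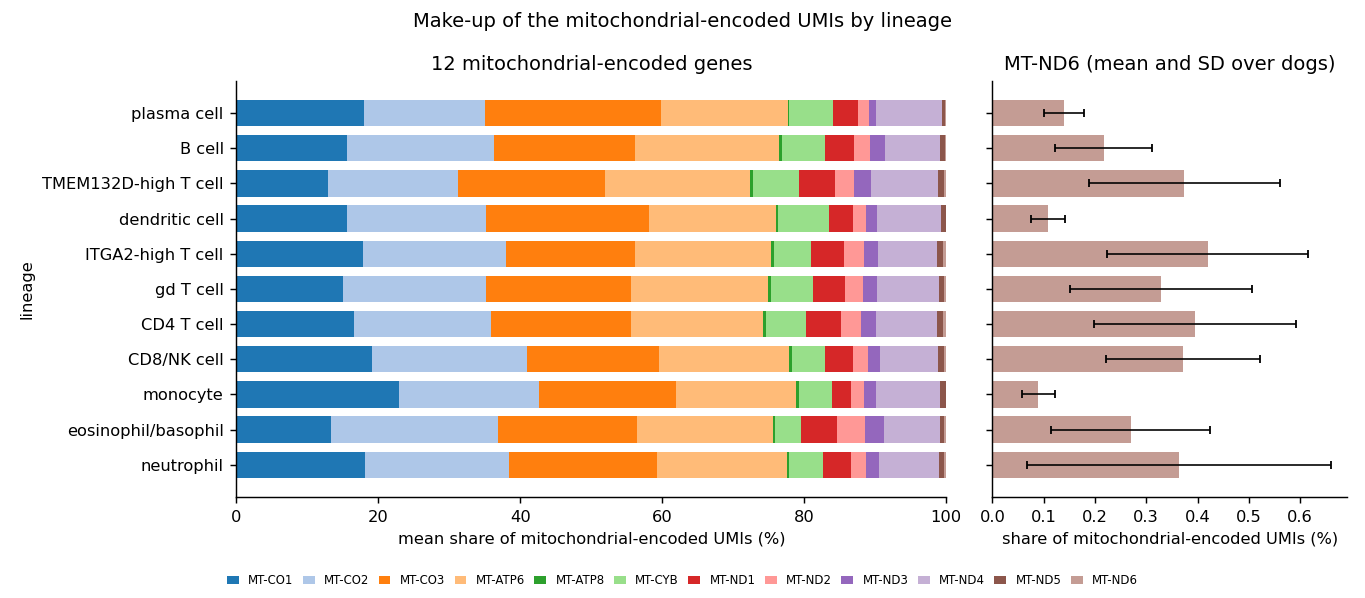
Mean share of each of the 12 mitochondrial-encoded genes among the mitochondrial UMIs of each lineage (left, stacked bars in percent) and the share of MT-ND6 as mean ± SD over dogs (right). MT-ND6 is lowest in monocytes (0.0891%) among these lineages, against 0.395% in CD4 T cells, and MT-CO3 is larger in plasma cells (24.7%) than in B cells (19.9%).

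Tissue-restricted isoforms were at low levels, the highest being COX7A1 in monocytes and COX7B2 in PMN-MDSCs. COX7A1, known as the heart and skeletal muscle form of a complex IV subunit, ranged from 2.50 to 12.2 CPM (median 7.94) in monocytes and from 0 to 0.694 CPM (median 0.307) in CD4 T cells (log2 fold change 4.86, SE 0.187, adjusted p = 4.06e-17, 17 of 17 dogs). Its mean was 0.603 CPM in B cells, 0.513 CPM in neutrophils, 0.566 CPM in dendritic cells and 0.503 CPM in plasma cells. COX4I2, COX6A2 and NDUFA4L2 had means in all leukocytes of 0.0378, 0.0312 and 0.0019 CPM. COX7B2 was at 0 in B, T and plasma cells and monocytes but at a mean of 9.45 CPM in PMN-MDSCs (range 3.70 to 13.8, 5 dogs). In eosinophils/basophils it was at 15.1 CPM in healthy dog 5 and 8.42 CPM in OS dog 4, and at 0 in the other 13 dogs. COX7A2L, a complex IV-related factor of supercomplexes, had means of 5.88 CPM in eosinophils/basophils, where it was at 0 in 7 of 15 dogs, 12.6 CPM in neutrophils (0 in OS dog 9), 39.6 CPM in monocytes and 68.7 CPM in CD8/NK cells. ATP5IF1, the inhibitor of the ATP synthase, had means of 287 CPM in CD8/NK cells, 259 in CD4 T cells, 245 in B cells, 342 in plasma cells, 368 in dendritic cells, 158 in monocytes and 73.8 in neutrophils, and was called lower in neutrophils than in monocytes (log2 fold change −1.19).

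Genes outside the rule that serve the same pathway were counted from lists by role. In neutrophils against monocytes, 10 of 12 tricarboxylic acid cycle genes were lower and 1 higher, among them CS, citrate synthase (log2 fold change −2.04), FH, fumarase (−3.47), and SUCLA2 (−2.43), with OGDH as the higher one (0.62). Of 39 further assembly factors 21 were lower and 1 higher, including COX10 (−5.01) and COX11 (−3.54), which serve the assembly of complex IV. Of 16 genes of mitochondrial DNA expression, 9 were lower and 1 higher, with LRPPRC, which stabilizes mitochondrial messenger RNAs, at −4.57 and POLRMT, the mitochondrial RNA polymerase, at −2.33. Of 5 electron carriers and further subunits, 4 were lower, including CYCS, cytochrome c (−1.17). These stand against 33.4% lower and 18.9% higher among all genes. Scaled by library size alone, where 32.0% of all genes were lower, the counts lower were 10, 20, 7 and 4.

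In plasma cells against B cells, where 18.6% of all genes were higher and 23.3% lower, 8 of 12 tricarboxylic acid cycle genes were higher and 1 lower, 13 of 38 assembly factors were higher and 2 lower, and 3 of 5 electron carriers were higher, with CYCS at 2.27 and CYC1, cytochrome c1 of complex III, at 1.93. Mitochondrial DNA expression was near the background, with 3 of 16 genes higher and 3 lower. Scaled by library size alone (12.6% of all genes higher and 36.5% lower), 4 tricarboxylic acid cycle genes were higher and 2 lower, 6 assembly factors were higher and 7 lower, 2 electron carriers were higher, and 2 genes of mitochondrial DNA expression were higher and 6 lower. In monocytes against CD4 T cells (25.1% of all genes higher and 26.8% lower) the list of mitochondrial DNA expression had 1 gene higher and 6 lower, with TFAM, the packaging and transcription factor of mitochondrial DNA, at −2.31, TEFM, its elongation factor, at −1.76, and TWNK, its helicase, at −1.34. Assembly factors had 2 of 39 higher and 12 lower, while 3 of 12 tricarboxylic acid cycle genes were higher, a share near the background (CS 1.47, SUCLG1 1.15, DLST 1.14), and 0 lower. On library size alone (21.0% of all genes higher and 33.4% lower), 6 genes of mitochondrial DNA expression and 16 assembly factors were lower and 0 higher, and 3 tricarboxylic acid cycle genes were higher and 1 lower. Of 9 genes listed as regulators, a list that also holds HIF1A and YY1, 4 were higher and 1 lower, with the same counts on library size alone. PPARGC1A (3.12), PPARGC1B (2.35) and ESRRA (2.92) were among the higher ones. In B against CD4 T cells at most 5 genes of a list passed in either direction, and in CD8/NK against CD4 T cells at most 2 (backgrounds of 15.5% in each direction, and of 9.73% higher and 11.6% lower). On library size alone these were at most 6 (of 39 assembly factors) and at most 2, and 3 of 9 regulators were higher in B cells. The backgrounds on that scale were 18.2% higher and 12.8% lower in B cells, and 11.9% and 8.93% in CD8/NK cells.

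The genes whose mean levels over the 11 lineages were most like the nuclear-encoded share, of 7700 genes at 10 CPM or more, were PSMB2 (Pearson r = 0.996), a proteasome subunit, NME2 (0.989), a nucleoside diphosphate kinase, COQ5 (0.982), an enzyme of ubiquinone synthesis, and ENSCAFG00000010086 (0.981) and ENSCAFG00000030143 (0.978), listed without a symbol. Each was highest in plasma cells and lowest in neutrophils. PSMB2, for example, was at 322 and 70.3 CPM.

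Next, dogs with OS were compared with healthy dogs. In all leukocytes, the mitochondrial share was 2.98% ± 0.433 (SD, n = 10; lowest 2.42%, median 3.02%, highest 3.73%) in dogs with OS and 3.20% ± 0.551 (SD, n = 7; 2.38%, 3.48% and 3.72%) in healthy dogs, and the ranges overlapped (p = 0.417, adjusted p = 1, exact Wilcoxon rank-sum test). The difference was −0.217 percentage points, and −0.354 without healthy dog 2 and −0.131 without healthy dog 6. The nuclear-encoded share was 0.709% ± 0.0692 against 0.668% ± 0.0964 (p = 0.417, adjusted p = 0.887, same exact test). Healthy dog 2 had the lowest nuclear-encoded share of all dogs at 0.473%, along with the lowest ribosomal share, and the part of its library in the result was not tested. Without that dog the difference fell from 0.0410 to 0.00845 percentage points. None of the 10 lineages or groupings passed the test for either share, with adjusted p values of 1 for the mitochondrial and 0.887 for the nuclear-encoded share throughout. The smallest unadjusted p was 0.193, for the nuclear-encoded share of B cells (0.699% ± 0.0699 in dogs with OS and 0.655% ± 0.0968 in healthy dogs, exact test). This difference of 0.0433 percentage points was 0.00932 without healthy dog 2 and 0.0607 without OS dog 3, and its smallest p with 1 dog left out was 0.0559 (exact test, adjusted p = 0.559).

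The number of mitochondrial UMIs per nuclear-encoded UMI leaned lower in dogs with OS, at 4.21 ± 0.523 against 4.83 ± 0.758 in all leukocytes, and 9 of the 10 dogs with OS lay below the healthy median. This difference did not pass the test (p = 0.161, adjusted p = 0.450, exact Wilcoxon rank-sum test). The same was true in monocytes (3.36 ± 0.600 against 3.83 ± 0.539, p = 0.193, adjusted p = 0.450, exact test). A test of whether the difference of a lineage from CD4 T cells changed with OS gave adjusted p values of 0.839 or more in all 14 cases (exact test).

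In none of these comparisons did a member pass the threshold between the disease groups. Between 68 and 75 members were tested in each of the 10 comparisons, and 0 were called by edgeR, as were 0 of all genes (background 0% in each comparison). At an unadjusted p below 0.05, edgeR had 1 of 75 members in all leukocytes, 2 in B cells, 0 in CD4 T cells, 1 in CD8/NK cells, 0 in dendritic cells, 2 in TMEM132D-high T cells, 4 in eosinophils/basophils, 1 in ITGA2-high T cells, 3 in monocytes and 2 in neutrophils. As a share of those tested these were 0% to 5.80% of members, the highest in eosinophils/basophils, where 7.18% of all genes had such a p. In each of the 10 comparisons the share of members was below that of all genes, which ranged from 3.53% in CD4 T cells to 7.18%. DESeq2 also called 0 members, and between 0 and 4 of all genes.

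The members with the smallest p-values are given as values without a call. UQCRFS1 in all leukocytes was at 42.6 ± 10.8 CPM in dogs with OS and 32.7 ± 7.95 in healthy dogs (log2 fold change 0.43, SE 0.196, adjusted p = 0.920). NDUFAF1, an assembly factor, was at 22.3 ± 3.72 against 15.5 ± 4.87 CPM in TMEM132D-high T cells (0.54), and NDUFS7 at 88.7 ± 29.5 against 48.4 ± 27.9 CPM in eosinophils/basophils (0.92, adjusted p = 0.538, the smallest of any member in the 10 comparisons). NDUFA6 in neutrophils was at 36.7 ± 11.7 against 59.4 ± 12.9 CPM (−0.55). COX8A in monocytes was at 126 ± 47.1 against 91.1 ± 28.1 CPM (0.51). No member had ranges that did not overlap between the groups, and among all genes this held for at most 0.0343%.

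The members' medians lay close to 0. In all leukocytes the median log2 fold change of OS over healthy was 0.14 for nuclear-encoded members, −0.01 for mitochondrial-encoded members and 0.00 for all 16216 genes. Nuclear-encoded medians were 0.17 in TMEM132D-high T cells, 0.14 in eosinophils/basophils, 0.13 in B cells, 0.13 in monocytes and 0.03 in neutrophils. Since members of one complex share the same dogs, these medians are descriptions and were not tested. Tricarboxylic acid cycle genes, assembly factors, genes of mitochondrial DNA expression, electron carriers and regulators had 0 genes called in every lineage.

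**Figure D4:**
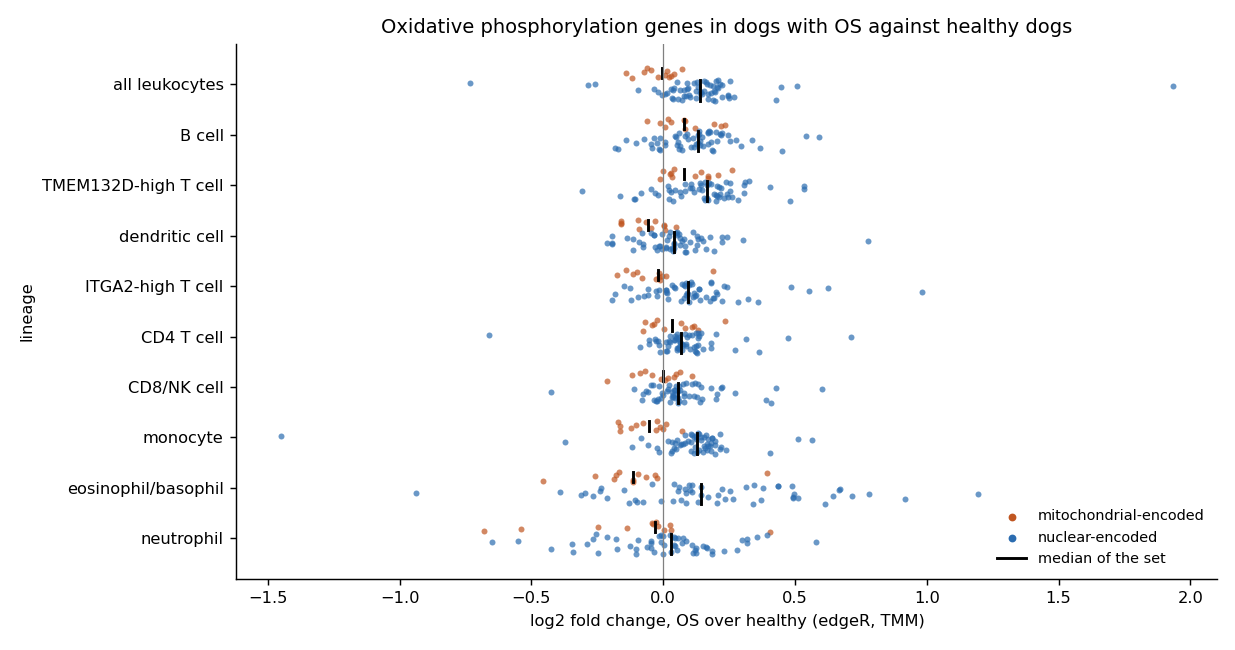
Log2 fold change of each tested member in dogs with OS over healthy dogs, in all leukocytes and 9 lineages, with mitochondrial-encoded members in orange, nuclear-encoded members in blue and a black line at the median of each set. In all leukocytes the medians are −0.01 and 0.14, and none of the members is called in any lineage.

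The shares of both genomes were also compared across dogs. In all leukocytes Pearson's r between the mitochondrial and nuclear-encoded shares was 0.412 and Spearman's rho 0.316 (permutation p = 0.098 and 0.217, adjusted p = 0.221 and 0.334 over 9 groupings, n = 17). Without the 2 dogs farthest from the median, r was 0.00964. Within the groups r was 0.468 in the healthy dogs and 0.539 in the dogs with OS. In monocytes r was 0.471 and rho 0.475 (permutation p = 0.0575 and 0.0560), and r was 0.221 without 2 dogs. Dendritic cells had the largest r, 0.518, with a rho of 0.538 (n = 14, permutation p = 0.0587 and 0.0509), and r was 0.459 without 2 dogs. Without 2 dogs r rose in neutrophils (from 0.360 to 0.445) and eosinophils/basophils (from 0.277 to 0.426) and fell in the other 7 groupings. None of the 9 groupings passed after adjustment, where the smallest adjusted p was 0.168.

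Single members differed in how much they varied between dogs. Among 68 members at 10 CPM or more in all leukocytes, the median coefficient of variation (SD over mean) was 18.1%, with 20.8% for mitochondrial-encoded and 16.4% for nuclear-encoded members, against 21.6% for all 7699 genes at that level. At the steady end, NDUFS4 varied by 6.80% and ATP5F1B, the beta subunit of the ATP synthase, by 7.10%. At the other end stood NDUFA13 (55.9%), NDUFV3 (51.8%), COX8A (45.3%) and MT-ATP8 (44.3%), and their patterns over dogs differed from each other.

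NDUFV3, a small flavoprotein subunit of complex I, separated the dogs into an upper and a lower set. Healthy dogs 2 and 4 and OS dogs 2, 4 and 5 lay between 123 and 215 CPM in all leukocytes, and the other 12 dogs between 59.6 and 82.5 CPM. The same 5 dogs were above the others in CD4 T cells (139 to 248 against 70.8 to 103 CPM), CD8/NK cells (145 to 284 against 43.1 to 70.4), TMEM132D-high T cells (196 to 297 against 62.8 to 102), B cells (136 to 263 against 32.6 to 72.7) and monocytes (84.1 to 129 against 47.6 to 68.4). In neutrophils they overlapped the others (32.6 to 86.2 against 35.0 to 76.4 CPM). Both sets held healthy dogs and dogs with OS.

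COX8A was lowest in healthy dogs 2, 3 and 6 and OS dogs 5 and 6, at 46.5 to 80.5 CPM, with the other 12 dogs spread over 107 to 262 CPM. The same 5 dogs were below the others in all 6 lineages examined. The gap was narrow in some, as in CD8/NK cells (at most 109 against at least 115 CPM) and B cells (62.6 against 69.3 CPM). Its level in CD4 T cells had an r of 0.988 with that in CD8/NK cells, 0.980 with B cells, 0.910 with monocytes and 0.931 with neutrophils (n = 17 dogs, the same libraries, chosen after the values were seen). NDUFA13 was highest in OS dog 1, at 75.7 CPM against 12.2 to 50.5 CPM in the other 16 dogs, and that dog was also the highest in CD4 T, CD8/NK, TMEM132D-high T and B cells, monocytes and neutrophils. MT-ATP8 was highest in healthy dog 2 and OS dogs 2 and 3 (192 to 243 CPM against 73.8 to 145 CPM in the other 14). These 3 dogs were also above the others in CD4 T, CD8/NK and TMEM132D-high T cells, but overlapped them in B cells (220 to 501 against 131 to 274 CPM), monocytes (130 to 221 against 56.4 to 143 CPM) and neutrophils. The 3 dogs include the one with the lowest ribosomal share and the one with the fewest UMIs, and their part in the result was not tested.

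**Figure D5:**
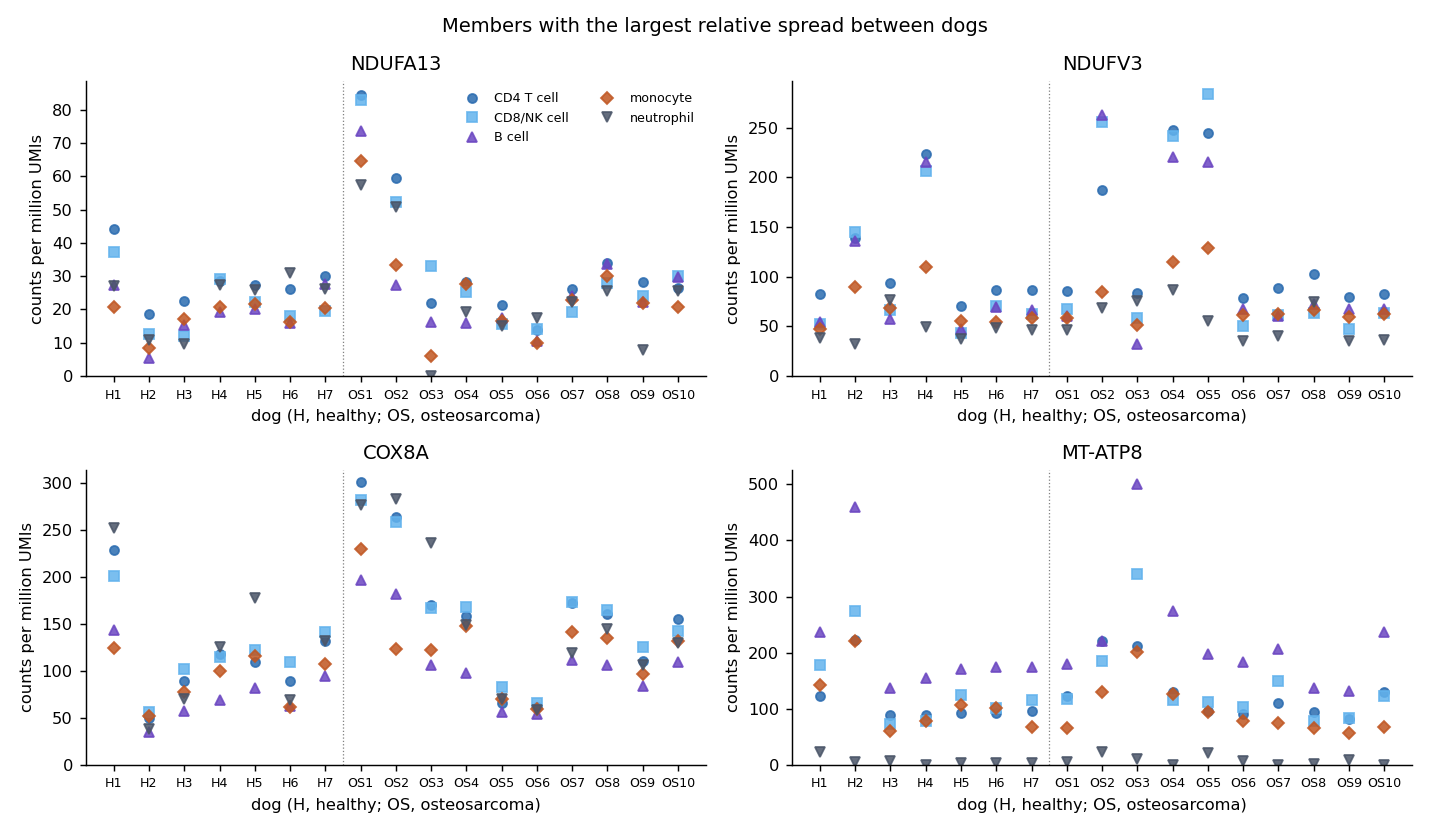
CPM of NDUFA13, NDUFV3, COX8A and MT-ATP8 in each dog (x axis, healthy dogs left of the dotted line and dogs with OS right of it) for CD4 T cells, CD8/NK cells, B cells, monocytes and neutrophils. The neutrophil points follow those of CD4 T cells most closely for COX8A (r of 0.931, against 0.273 for MT-ATP8, 0.438 for NDUFV3 and 0.531 for NDUFA13), and for NDUFV3 the same 5 dogs stand above the others in every lineage shown but neutrophils.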

How the data were processed

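UMI counts per gene and cell barcode were used as deposited by the authors, who made them with Cell Ranger 7.0.0 against CanFam3.1 with an annotation limited to protein-coding, lincRNA, antisense and immunoglobulin genes. Every library was aligned in both modes, intronic reads counted or not, and the mode of the deposited matrices is not given in the sources used here.

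Barcodes with 200 to 4500 genes, 500 to 20000 UMIs and less than 10% mitochondrial counts were kept (84345 of 93013). Of these, the 3938 with the highest doublet scores were removed. Their number was a quota per dog that rose with its number of barcodes, whatever the scores were. The automatic threshold of the score called only 1359 doublets, so the quota also took barcodes not predicted to be doublets. Keeping all barcodes of the quota is called doublets kept here. Cells were clustered with leidenalg 0.10.2 on principal components of 2000 variable genes, corrected across dogs by soft k-means (the model of Harmony). Members, ribosomal protein genes, the pathway lists and ND4L were left out of the variable genes. Clusters were named by fixed markers with score thresholds set after the clusters were seen. UMIs were summed over the cells of each dog and lineage with at least 25 cells. Shares were compared with exact tests (scipy 1.17.1), and genes with at least 10 counts with edgeR 4.0.16 in R 4.3.3, or DESeq2 1.42.0 as an alternative. P-values were adjusted by Benjamini-Hochberg over all genes, lineages or pairs tested. Scripts were tested on simulated data.

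The members and lists were chosen with earlier results of these data known. Named are all mitochondrial-encoded, complex II and tissue-restricted members, for each pair of lineages the 5 called members of largest change in each direction at 10 CPM or more, and between groups those of smallest p. The genes compared across dogs, the clusters paired, and members named besides were chosen after their values were seen. Alternatives were other filters, doublets kept, other resolutions, scaling, tests and denominators, age, sex or replicate number in the fit, and dogs left out.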

Additional observations from a re-analysis of the deposited data

Results flagged for a closer look

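Within each group of 4 to 10 dogs, the highest and the lowest share were compared with the other dogs by Dixon's criterion. Of 44 groups, 8 had a dog that stood apart, where chance gives about 1 in 20. In 6 of them healthy dog 2 had the lowest nuclear-encoded share of the 7 healthy dogs: 0.473% in all leukocytes (next lowest 0.644%), 0.451% in B cells (0.643%), 0.479% in CD4 T cells (0.615%), 0.435% in CD8/NK cells (0.596%), 0.449% in ITGA2-high T cells (0.600%) and 0.368% in neutrophils (0.491%). The same dog had the lowest share of ribosomal protein genes in all leukocytes (9.19%, next lowest 12.4%). These groups share 1 library and are not independent.

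OS dog 4 had the lowest mitochondrial share of the 10 dogs with OS in CD8/NK cells (1.94%, next lowest 2.60%) and the highest of 8 in eosinophils/basophils (2.21%, next highest 1.23%).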

How the results depend on the processing

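Over all alternatives, of the values that answer a comparison 942 kept their direction and side of the threshold, 26 counts moved, 12 fell below it, 5 rose above it and 2 reversed. Of the values of single lineages and named genes 767 kept both, 16 fell below the threshold and 50 reversed. In each reversal or loss below the cause was not tested unless stated. Between dogs with OS and healthy dogs, 0 members were called in any of 295 fits, including those with age, sex or the replicate number as a block. The 7 pairs of dogs with the same number had correlations from −0.573 to 0.470, 4 of them above 0.1, and 1 healthy dog correlated best with its own number. With so few pairs and no batch in the labels, these values cannot tell whether dogs of one number share more than the number. The difference in mitochondrial share (OS minus healthy, percentage points) changed sign in neutrophils without the mitochondrial limit (−0.0197), with doublets kept (−0.107) and as a mean of cells (−0.0204), in TMEM132D-high T cells with the latter 2 (0.0112 and 0.00368), and in CD8/NK cells at clustering resolution 1.5 (0.00594), as did the nuclear-encoded share of dendritic cells as a mean of cells (−0.000298). Leaving out 1 dog at a time, the mitochondrial difference ranged from −0.161 to 0.161 in B cells, −0.196 to 0.0429 in CD4 T cells, −0.131 to 0.0750 in CD8/NK cells, −0.152 to 0.138 in TMEM132D-high T cells, −0.230 to 0.0299 in eosinophils/basophils, −0.0247 to 0.0302 in neutrophils, −0.477 to −0.0530 in ITGA2-high T cells, −0.418 to −0.129 in dendritic cells and −0.310 to −0.104 in monocytes, and the nuclear-encoded one from −0.00342 to 0.0367 in CD4 T cells, −0.00291 to 0.0336 in ITGA2-high T cells, −0.00313 to 0.0197 in dendritic cells and −0.0182 to 0.0123 in neutrophils. Correlations of both shares reversed without 2 dogs in CD4 T cells (−0.0515) and B cells (−0.177), and in dogs with OS alone in CD8/NK cells (−0.0722).

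Between lineages (log2 ratios), the mitochondrial share of CD8/NK over CD4 T cells no longer passed at resolution 1.5 (−0.0883) or in dogs with OS alone (−0.116). In healthy dogs alone 25 pairs passed, without plasma over B cells (0.31) and dendritic cells over monocytes (0.47). Too few healthy dogs had enough plasma cells for the exact test to reach the threshold. For the nuclear-encoded share, 0 pairs passed in healthy dogs alone, where fewer dogs give a larger smallest p: plasma over B cells 0.66, CD8/NK over CD4 T cells −0.0473, TMEM132D-high over CD4 T cells −0.0919, neutrophils over monocytes −0.44 and dendritic cells over monocytes 0.29. CD8/NK over CD4 T cells was also lost as a mean of cells (−0.0149), at resolution 1.5 (−0.0125) and in dogs with OS alone (−0.0168). B over CD4 T cells reversed in healthy dogs alone (−0.000356) and with low-ribosomal cells put back (−0.0468), and passed with UMIs of other genes as the denominator (0.0496). Monocytes over CD4 T cells passed at resolution 0.5 (0.0854), and without healthy dog 1, OS dog 1 or OS dog 2 (0.0670 to 0.103 over all dogs left out).

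At an adjusted p of 0.05 without a fold limit, members higher and lower were 5 and 47 of 72 in CD8/NK against CD4 T cells (all genes 3201 and 4418 of 14864). They were 19 and 38 of 73 in B against CD4 T cells (3845 and 4883 of 14843) and 38 and 21 of 72 in monocytes against CD4 T cells (5413 and 6072 of 15340). Neutrophils against monocytes had 2 and 61 of 72 (3587 and 5701 of 14220), and plasma against B cells 60 and 3 of 71 (3146 and 4057 of 12141). The following counts are at the main threshold (adjusted p below 0.01 and absolute log2 fold change above 0.58). Library size alone gave 0 higher and 1 lower in CD8/NK and 7 higher and 0 lower in B against CD4 T cells. It gave 3 higher and 11 lower in monocytes against CD4 T cells, and 30 higher and 3 lower in plasma against B cells. DESeq2, RLE factors and filterByExpr each gave 2 lower in CD8/NK and 1 lower in B cells, as did a fit without the dog as a block in B cells (1). In plasma cells DESeq2, no filter, at least 10 cells per dog and low-ribosomal cells put back each gave 1 lower. Putting back the low-ribosomal cells, and leaving out healthy dog 2 or OS dog 3 in the comparisons of members between lineages, were chosen after seeing the data.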
